A study of Mus musculus with 8 samples.

Results

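The data are described here for 9 genes that place lymphocytes in tissue or release them into blood. They are the chemokine receptors Ccr7, Cxcr5, Ccr6 and Cxcr3, the sphingosine-1-phosphate receptors S1pr1, S1pr2, S1pr4 and S1pr5, and the transcription factor Klf2. They were chosen by name, as the rows of the count table that carry these symbols, and all 9 were found among its 21878 genes. RNA of whole peripheral blood was sequenced from female wild-type C57BL/6 mice aged 6 to 8 weeks. The stress group (n = 4) was held in a ventilated tube for 6 hours, and the control group (n = 4) stayed in the cage. Both groups went without food and water during that time, so the comparison is between restraint and its absence in fasted mice. The labels do not say whether each library came from a mouse of its own, so p-values measure the spread between libraries.

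Chemokine receptors and sphingosine-1-phosphate receptors are membrane proteins that cross the lipid bilayer repeatedly and signal through G proteins. CCR7 takes naive T cells and B cells into lymph nodes, CXCR5 takes B cells into follicles, CCR6 is carried by B cells and by interleukin-17-producing T cells, and CXCR3 is carried by activated T cells and NK cells. Sphingosine-1-phosphate is abundant in blood and scarce inside lymphoid tissue, and S1PR1 lets lymphocytes follow it out into the circulation. KLF2 switches on S1pr1 in T cells, while S1PR5 serves the exit of NK cells and patrolling monocytes, S1PR4 is found on lymphocytes and myeloid cells, and S1PR2 restrains migration.

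The 8 receptors share a short stretch at the inner end of the third membrane helix, an acidic residue followed by arginine, which takes part in switching such receptors on. It is shown because it is what the members have in common at the sequence level although they bind different ligands. Each line gives 39 bases of coding sequence, 5′ to 3′, from the GENCODE M21 transcripts of GRCm38. The capitals mark the codons of the acidic residue and arginine and the codon after them.
Ccr7, chr11:99145615-99145653, minus strand: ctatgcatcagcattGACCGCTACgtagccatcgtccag
Cxcr5, chr9:44513894-44513932, minus strand: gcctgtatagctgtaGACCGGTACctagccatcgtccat
Ccr6, chr17:8256349-8256387, plus strand: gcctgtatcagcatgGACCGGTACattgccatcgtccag
Cxcr3, chrX:101732593-101732631, minus strand: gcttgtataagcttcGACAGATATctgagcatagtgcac
S1pr1, chr3:115712500-115712538, minus strand: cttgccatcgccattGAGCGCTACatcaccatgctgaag
S1pr2, chr9:20968123-20968161, minus strand: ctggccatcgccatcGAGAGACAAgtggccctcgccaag
S1pr4, chr10:81499183-81499221, minus strand: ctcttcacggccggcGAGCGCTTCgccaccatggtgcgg
S1pr5, chr9:21244712-21244750, minus strand: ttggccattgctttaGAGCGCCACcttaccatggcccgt

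The first codon in capitals splits the receptors by family. It was GAC, for aspartate, in the 4 chemokine receptors and GAG, for glutamate, in the 4 sphingosine-1-phosphate receptors. The codon after arginine was TAC or TAT, for tyrosine, in 5 of the 8 receptors, and the 3 others were S1pr2, S1pr4 and S1pr5. Over the whole coding sequences, the longest run of identical bases in any of the 28 pairs of receptors was 19 bases, between S1pr2 and S1pr5.

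The libraries held 31471145 to 39014775 counts in the control group and 25978683 to 29655725 in the stress group. In control libraries 51.9% to 63.8% of these counts came from haemoglobin genes, and in stress libraries 61.2% to 75.5%. Counts outside haemoglobin therefore numbered 11412556 to 18774818 per control library and 6355715 to 11009882 per stress library, with the fewest in stress replicate 3. Levels are given as CPM, the usual library-scaled counts, with the library size corrected by TMM factors, which assumes that most genes did not change. Tests were run on 11718 genes, and all 9 members were among them. The choice of scale matters for every value given here, because over all tested genes the log2 fold change had a median of -0.02 with TMM but of -0.82 with total counts alone.

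After 6 hours of restraint, 2 of the 9 genes fell, Cxcr5 and Ccr6 (edgeR quasi-likelihood test, Benjamini-Hochberg adjusted p below 0.05). They fell to 0.700 and 0.637 of the control level, respectively. None of the 9 rose by edgeR, and the number with a positive change and an unadjusted p below 0.05 was also 0; DESeq2 and limma-voom gave 0 as well. Across all tested genes 3.69% fell and 10.4% rose by the same rule. At the study's own thresholds, which ask for a log2 fold change beyond 1 in either direction at an adjusted p under 0.01, 0 of the 9 genes passed by edgeR, DESeq2 or limma-voom, beside 1.69% of all tested genes that passed upward and 0.0171% downward. At an unadjusted p below 0.05, edgeR gave 2 of the 9 genes, DESeq2 3 (with S1pr1 as the third) and limma-voom 2, beside 31.2%, 31.2% and 31.9% of all tested genes, shares near or above those of the members. The log2 fold change was negative in 6 members and positive in 3, with a median of -0.16. In whole blood, fewer cells of a type and less RNA per cell cannot be told apart.

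**Figure D1:**
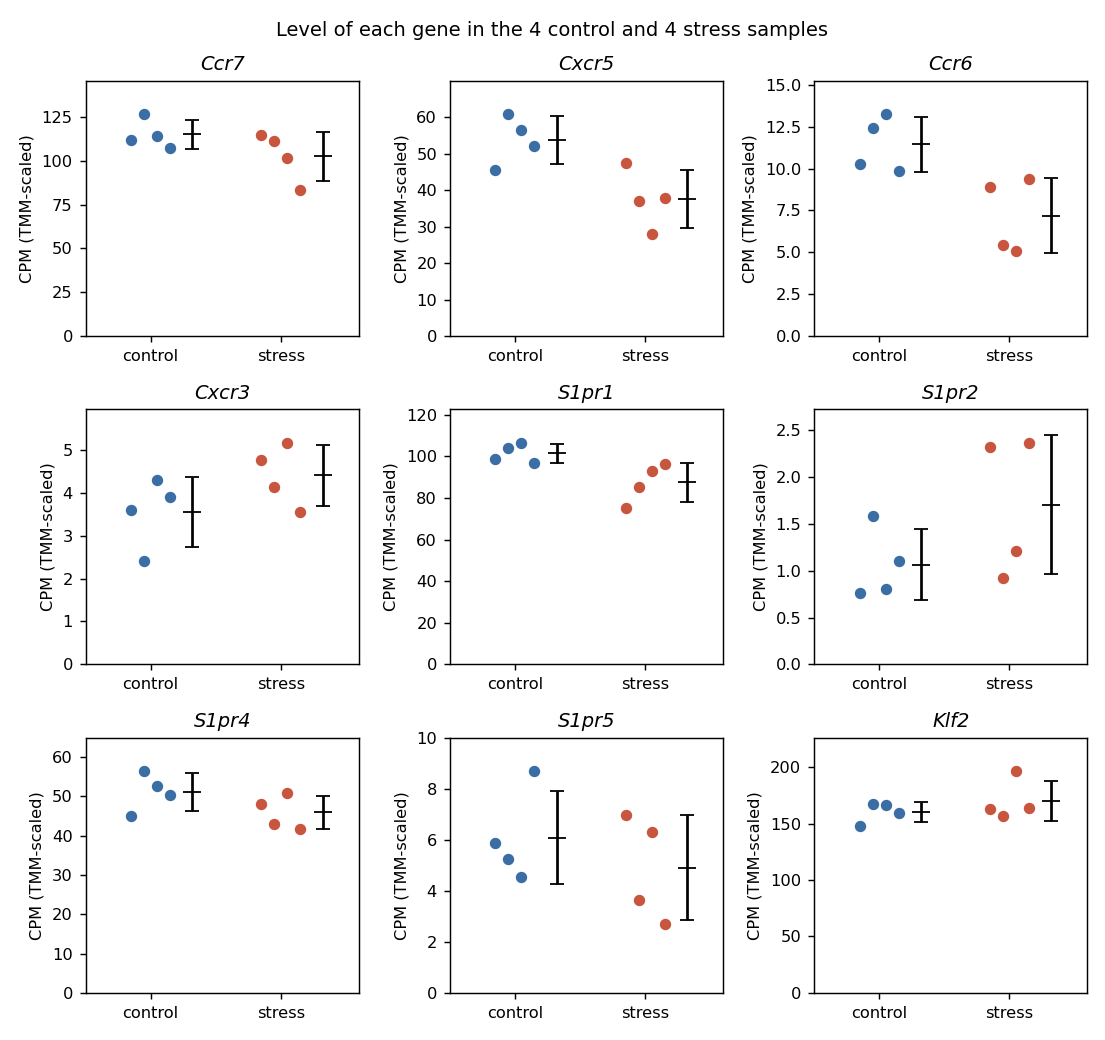
CPM after TMM scaling (y axis, from 0, a separate scale for each gene) of each of the 9 genes in the control and stress groups (x axis). Each point is 1 of 4 samples, and the black mark is the mean with its SD; for Ccr6 every stress sample, up to 9.41 CPM, lies below every control sample, from 9.87 CPM.

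Cxcr5 (chr9:44511787-44561877, minus strand) had 45.5, 60.8, 56.5 and 52.0 CPM in control replicates 1 to 4 and 47.3, 37.0, 27.9 and 37.9 CPM in stress replicates 1 to 4. In 3 of 4 stress samples it lay below the lowest control, and stress replicate 1 lay within the control range. The mean went from 53.7 ± 6.53 (SD, n = 4) to 37.5 ± 7.95 (SD, n = 4) CPM, a log2 fold change of -0.51 (SE 0.15, 95% interval of the fold 0.561 to 0.873, edgeR quasi-likelihood adjusted p = 0.0356). The call was not stable when single libraries were left out. It was lost in 6 of the 8 fits that left out 1 library, with an adjusted p of 0.119 without control replicate 2, 0.0898 without control replicate 3, 0.0583 without control replicate 4, 0.0886 without stress replicate 2, 0.0524 without stress replicate 3 and 0.0510 without stress replicate 4, while the log2 fold change stayed between -0.62 and -0.38. The exons of Cxcr5 share 110 bases, 3.30% of their length, with exons of Bcl9l on the other strand. Bcl9l, a cofactor of Wnt signalling, had 39.5 ± 1.65 CPM in the control group and 28.5 ± 5.89 CPM in the stress group (SD, n = 4 each, log2 fold change -0.47, edgeR adjusted p = 0.0355), and it passed in 3 of 8 fits without 1 library. The strand setting of the counting is not given in the sources used here, so reads of the shared bases cannot be told apart.

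Ccr6 (chr17:8236043-8257141, plus strand) had 10.3, 12.4, 13.2 and 9.87 CPM in the control samples and 8.87, 5.43, 5.09 and 9.41 CPM in the stress samples. Every stress sample lay below every control sample, although stress replicate 4 and control replicate 4 were close. Such a separation, with all stress samples below all controls, was seen in 9.87% of the tested genes. With total counts alone the groups overlapped for Ccr6. The mean went from 11.5 ± 1.63 to 7.20 ± 2.26 CPM (SD, n = 4 each), a log2 fold change of -0.65 (SE 0.19, 95% interval of the fold 0.477 to 0.849, edgeR adjusted p = 0.0405). This call too was lost in most fits without 1 library, 5 of 8, with an adjusted p of 0.0587 without control replicate 1, 0.111 without control replicate 2, 0.111 without control replicate 3, 0.107 without stress replicate 2 and 0.0794 without stress replicate 3. The log2 fold change lay between -0.81 and -0.51 in these fits. Of the 9 members, Ccr6 had the lowest place among all tested genes, at the 3.11th percentile of log2 fold changes, followed by Cxcr5 at the 6.09th.

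The promoter of Ccr6 is shown as the only promoter here of a gene that fell. The 250 bases before its start site at chr17:8235793-8236042, plus strand, are those of RefSeq on GRCm38.p6. The capitals mark the octamer ATTTGCAT, which the B cell factors OCT2 and OCA-B bind, 60 bases before the start.
Ccr6 promoter: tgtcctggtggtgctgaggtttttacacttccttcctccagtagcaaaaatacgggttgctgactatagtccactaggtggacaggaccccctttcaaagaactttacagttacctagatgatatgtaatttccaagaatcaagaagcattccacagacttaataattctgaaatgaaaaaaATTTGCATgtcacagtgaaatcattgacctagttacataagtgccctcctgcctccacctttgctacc
On either strand the octamer was found in 570 of 32851 promoter windows of 300 bases, or 1.74%, and among the members with a window, only in Ccr6. RefSeq windows were matched for 6 of the 9 genes, not for Ccr7, Cxcr5 and S1pr1. The motifs were picked after these letters had been seen, and a match describes the letters only.

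Ccr7 and Cxcr3, which guide mainly T cells, did not pass the test. Ccr7 (chr11:99144196-99155077, minus strand) had 112, 127, 114 and 108 CPM in the control samples and 115, 111, 102 and 83.3 CPM in the stress samples. The groups overlapped, with 2 of 4 stress samples below the lowest control. The mean was 115 ± 8.14 CPM in the control group and 103 ± 14.1 CPM in the stress group (SD, n = 4 each, log2 fold change -0.16, SE 0.13, 95% interval of the fold 0.738 to 1.08, edgeR adjusted p = 0.405). The interval leaves room for a fall to 0.738 of the control level.

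Cxcr3 (chrX:101731535-101734269, minus strand) was much scarcer, with 124 to 297 counts per control library and 68 to 111 per stress library. It had 3.59, 2.40, 4.29 and 3.91 CPM in the control samples and 4.77, 4.13, 5.16 and 3.55 CPM in the stress samples, and the groups overlapped. The log2 fold change was 0.30 with TMM (SE 0.20, 95% interval of the fold 0.908 to 1.67, edgeR adjusted p = 0.340) and -0.53 with total counts alone (edgeR adjusted p = 0.200), so that its direction depends on the scale. Its level was 3.55 ± 0.818 CPM in the control group and 4.40 ± 0.709 CPM in the stress group (SD, n = 4 each).

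Of the sphingosine-1-phosphate receptors, none passed the test by edgeR, and none had an unadjusted p below 0.05 there. S1pr1 (chr3:115710433-115715072, minus strand), the egress receptor, had 98.5, 104, 106 and 96.7 CPM in the control samples and 75.2, 85.3, 92.9 and 96.5 CPM in the stress samples. Every stress sample lay below every control sample, as in 9.87% of the tested genes. Stress replicate 4 did so only just, and with total counts alone the groups overlapped. The mean was 101 ± 4.54 CPM in the control group and 87.5 ± 9.43 CPM in the stress group (SD, n = 4 each, log2 fold change -0.21, SE 0.11, 95% interval of the fold 0.727 to 1.02, edgeR adjusted p = 0.224).

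S1pr4 (chr10:81497747-81500132, minus strand) had 45.0, 56.4, 52.7 and 50.4 CPM in the control samples and 48.2, 42.9, 50.8 and 41.8 CPM in the stress samples. The groups overlapped, with means of 51.1 ± 4.78 and 45.9 ± 4.25 CPM (SD, n = 4 each, log2 fold change -0.16, SE 0.11, 95% interval of the fold 0.762 to 1.06, edgeR adjusted p = 0.355). S1pr5 (chr9:21242912-21248443, minus strand) had 5.89, 5.24, 4.55 and 8.70 CPM in the control samples and 7.001, 3.66, 6.30 and 2.72 CPM in the stress samples. For S1pr5 the spread within each group was wider than the difference between them, with means of 6.10 ± 1.82 and 4.92 ± 2.05 CPM (SD, n = 4 each, log2 fold change -0.32, SE 0.29, 95% interval of the fold 0.512 to 1.25, edgeR adjusted p = 0.485).

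S1pr2 (chr9:20962361-20976781, minus strand) was the scarcest member, with 28 to 82 counts per control library and 16 to 74 per stress library. It had 0.761, 1.59, 0.809 and 1.10 CPM in the control samples and 2.32, 0.927, 1.21 and 2.37 CPM in the stress samples, so that stress replicates 1 and 4 stood above all controls and the other two did not. The log2 fold change was 0.71 with TMM (SE 0.36, 95% interval of the fold 0.959 to 2.78, edgeR adjusted p = 0.195) and -0.01 with total counts alone. The interval reached from just under the control level to 2.78 times it.

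Klf2 (chr8:72319033-72321656, plus strand) had the highest level of the members. It had 148, 167, 167 and 159 CPM in the control samples and 163, 157, 196 and 163 CPM in the stress samples, and the groups overlapped. The mean was 160.2 ± 9.03 CPM in the control group and 169.9 ± 17.97 CPM in the stress group (SD, n = 4 each). The log2 fold change was 0.08 with TMM (SE 0.12, 95% interval of the fold 0.880 to 1.28, edgeR adjusted p = 0.689) and -0.74 with total counts alone (edgeR adjusted p = 0.0299).

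The promoter of Klf2, the only transcription factor among the members, is shown beside that of Ccr6. The 250 bases at chr8:72318812-72319061, plus strand, are those before the RefSeq start site on GRCm38.p6. The capitals mark a site for MEF2 factors, which reads the same on both strands, 108 bases before the start.
Klf2 promoter: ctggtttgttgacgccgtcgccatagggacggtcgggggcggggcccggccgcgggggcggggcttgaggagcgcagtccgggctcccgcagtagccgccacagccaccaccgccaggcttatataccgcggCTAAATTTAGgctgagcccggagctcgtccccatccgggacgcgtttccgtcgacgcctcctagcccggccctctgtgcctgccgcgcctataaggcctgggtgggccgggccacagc
These letters were found in 13 of the 32851 windows, or 0.0396%, and among the members with a window, only in Klf2. A T-box site, the letters TCACACCT on either strand, was found in 1.28% of all windows and in no member window.

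Scaled by total counts alone, 7 of the 9 members were lower in the stress group at an adjusted p below 0.05 (edgeR), all but Cxcr3 and S1pr2. On that scale 49.6% of all tested genes were lower by the same rule and 0.444% higher, and the median of the members was -0.99 beside -0.82 for all tested genes. Cxcr5 and Ccr6 again had the most negative values, with log2 fold changes of -1.29 (edgeR adjusted p = 0.00776) and -1.41 (edgeR adjusted p = 0.00597), and these 2 passed the thresholds of the study. On this scale 4 members, Ccr7, Cxcr5, S1pr4 and S1pr5, had all stress samples below all controls, beside 23.5% of the tested genes.

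**Figure D2:**
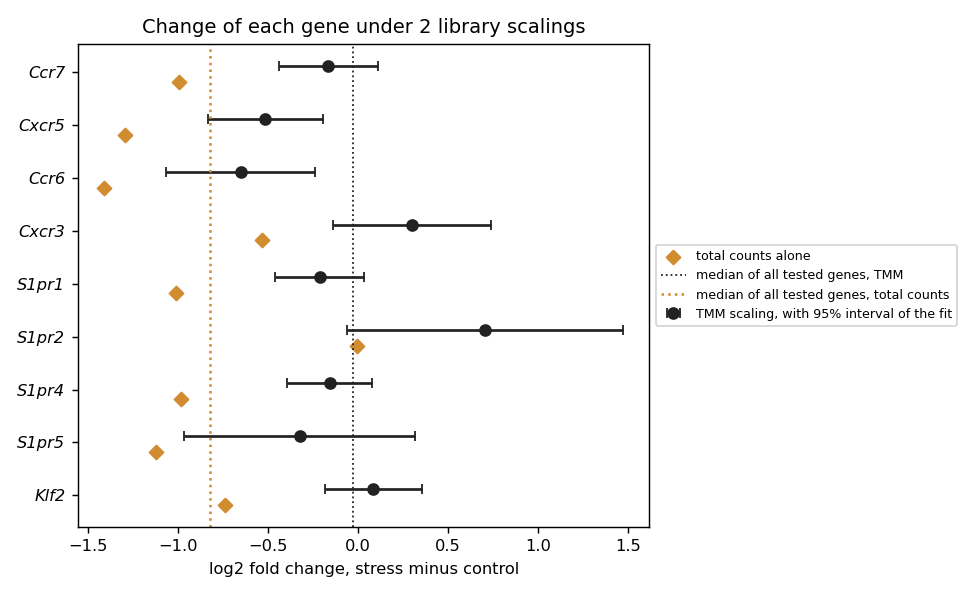
Log2 fold change, stress minus control (x axis), of each of the 9 genes (y axis) with TMM scaling (circles, 95% interval) and with total counts alone (diamonds). Dotted lines mark the median of all tested genes on each scale, -0.02 and -0.82; Cxcr3, S1pr2 and Klf2 lie above 0 with TMM and below 0 with total counts alone.

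Per kilobase of exon, the members' levels spanned a wide range in control blood. Klf2 came first with a mean of 86.8 CPM per kb (range 80.1 to 90.7), then Ccr7 with 58.2 (54.4 to 64.0) and S1pr1 with 33.3 (31.8 to 34.96). S1pr4 had 21.4 CPM per kb (18.9 to 23.6), Cxcr5 16.1 (13.7 to 18.2) and Ccr6 4.94 (4.25 to 5.71). At the low end S1pr5 had 2.44 (1.82 to 3.48), Cxcr3 2.05 (1.39 to 2.48) and S1pr2 0.134 (0.0954 to 0.199). Only the neighbours S1pr5 and Cxcr3 had overlapping ranges in this order, and these 2 changed places in the stress group, with 2.54 CPM per kb (2.05 to 2.98) for Cxcr3 and 1.97 (1.09 to 2.80) for S1pr5, again overlapping. In the stress group the range of Ccr6, 2.19 to 4.06 CPM per kb around a mean of 3.10, also overlapped that of Cxcr3.

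The blood cells that carry these receptors were checked by marker lists, each summed per library on the TMM scale. Such levels are shares of RNA and not cell counts. Of all tested genes 3.69% fell and 10.4% rose by edgeR, the shares to set beside the counts of each list. By flow cytometry after the same restraint, the study reported fewer B, T and NK cells, fewer monocytes and more neutrophils in blood. Of 15 B cell markers 8 fell and 0 rose by edgeR, the median log2 fold change was -0.48, and their summed level was 1354 to 1652 CPM in the control group and 918 to 1218 CPM in the stress group. The groups did not overlap, which is the same direction as for Cxcr5 and Ccr6. Of 16 T cell markers 0 passed in either direction by edgeR, by DESeq2, by limma-voom or at an unadjusted p below 0.05, the median was -0.09, and the summed levels overlapped (762 to 816 and 683 to 855 CPM). With total counts alone the median of the T cell markers was -0.91, beside -0.82 for all tested genes. Most T cell markers were lower on that scale (edgeR adjusted p 0.0121 to 0.0832), beside 49.6% of all tested genes. Of 13 NK cell markers 1 fell (Klrk1) and 0 rose, with summed levels of 135 to 204 and 116 to 220 CPM that overlapped as well. Klrk1 was named after its value was seen, as were the other marker genes named here and in the next paragraph. Of 10 non-classical monocyte markers 3 fell (Ace, Cd300e and Pou2f2) and 0 rose, with summed levels of 332 to 419 and 309 to 404 CPM. Pou2f2 encodes OCT2, named above as a B cell factor, so this list is not particular to monocytes. The summed level of this list rested mostly on Itgal and Spn, with control means of 158 and 82.5 CPM. Their stress means were 170 and 71.5 CPM, and neither passed by edgeR. Itgal also stands in the list of other homing receptors and adhesion molecules. With total counts alone the median log2 fold changes of the B cell, NK cell and non-classical monocyte lists were -1.27, -0.96 and -0.94, respectively.

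Most markers of neutrophils, classical monocytes and platelets rose on the TMM scale. Of 13 neutrophil markers 11 rose and 0 fell, with a summed level of 202 to 395 CPM in the control group and 624 to 926 CPM in the stress group. Of 10 classical monocyte markers 8 rose and 0 fell, and of 10 platelet markers 10 rose and 0 fell. For classical monocytes this is the opposite direction to the study's flow cytometry, which counted fewer Ly6C-high monocytes. Shares of RNA and cell numbers are unlike measures, and the gap was not tested. Of 9 red cell markers 1 rose (Hba-a2, one of a near-identical pair whose reads can be split) and 0 fell, a share near the 10.4% of all tested genes that rose, and their summed levels overlapped. The medians of these 4 lists remained positive with total counts alone, at 0.76, 0.75, 0.23 and 0.23, respectively. On that scale no platelet marker passed (edgeR adjusted p 0.230 to 0.741). In each of the other lists only part of the markers passed. Their edgeR adjusted p ran from 0.00487 to 0.915 for neutrophils, 3.37e-06 to 0.986 for classical monocytes and 0.0386 to 0.930 for red cells. The part of these shifts in the members' values was not tested beyond the ratios given next.

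**Figure D3:**
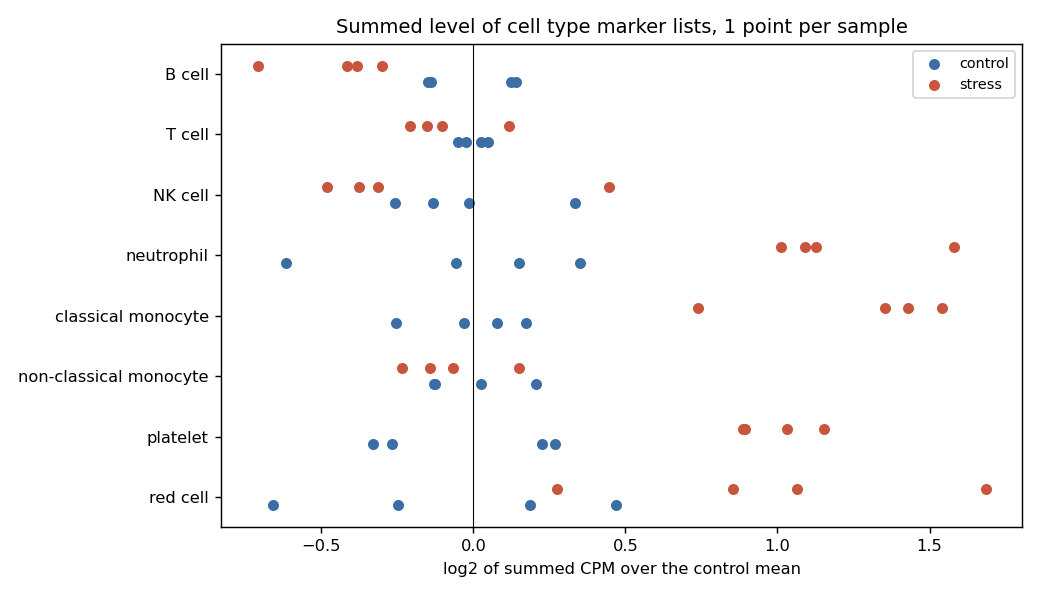
Summed CPM of the marker genes of each cell type (y axis), as log2 over the control mean (x axis), TMM scaling, with 1 point per sample. B cell markers lie lower in all 4 stress samples than in any control sample, neutrophil, classical monocyte and platelet markers higher, and those of T, NK and red cells and of non-classical monocytes overlap.

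In a ratio within a library the scaling of the library largely cancels, although not for genes near the pseudocount of 0.1 CPM. Each member except S1pr2 was therefore also set against the markers of cells that carry it or against another member. This gave 19 ratios on the log2 scale, and S1pr2 was in none of them. With 4 samples against 4 the smallest p of the exact permutation test is 0.0286, and adjusted over the 19 ratios 0 passed at 0.05. The number with an unadjusted p below 0.05 was 3, the ratios whose groups did not overlap, each with an adjusted p of 0.181.

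Relative to B cell markers, Cxcr5 was close to level between the groups. Its ratio to their geometric mean level was 0.601, 0.664, 0.613 and 0.683 in the control samples and 0.755, 0.727, 0.485 and 0.572 in the stress samples, which lie on either side of the control range (difference of log2 ratios -0.03, two-sided exact permutation p = 0.857). For Ccr6 the difference was -0.21 (exact permutation p = 0.371), and between Ccr6 and Cxcr5 it was -0.17 (exact permutation p = 0.343). These p-values do not show that the ratios were equal.

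The ratio of S1pr1 to Klf2, the receptor to a factor that drives it in T cells, was 0.666, 0.620, 0.640 and 0.608 in the control samples and 0.461, 0.545, 0.473 and 0.591 in the stress samples. It was lower in 4 of 4 stress samples than in any control sample, by 0.30 on the log2 scale or 0.813-fold (exact permutation p = 0.0286, adjusted p = 0.181). Both levels are those of whole blood and not of T cells alone. Klf2 relative to B cell markers was higher in 4 of 4 stress samples, with a difference of 0.58 on the log2 scale or 1.49-fold (exact permutation p = 0.0286, adjusted p = 0.181). S1pr4 relative to neutrophil markers was lower in 4 of 4 stress samples, with a difference of -1.68 or 0.313-fold, and of -1.45 with a pseudocount of 1 CPM (exact permutation p = 0.0286, adjusted p = 0.181). In these last ratios the denominator moved more than the member, since Klf2 itself differed by 0.08 and S1pr4 by -0.16 on the log2 scale.

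Relative to T cell markers, the differences of log2 ratios were -0.10 for Ccr7, 0.40 for Cxcr3, -0.14 for S1pr1, -0.08 for S1pr4 and 0.16 for Klf2, with exact permutation p-values of 0.514, 0.143, 0.314, 0.657 and 0.286. Relative to NK cell markers they were 0.52 for Cxcr3 (exact permutation p = 0.0857) and -0.17 for S1pr5 (exact permutation p = 0.571), and S1pr5 relative to non-classical monocyte markers differed by -0.12 (exact permutation p = 0.686). Relative to B cell markers, Ccr7 differed by 0.33 (exact permutation p = 0.114) and S1pr1 by 0.28 (exact permutation p = 0.0857). Between members, relative to S1pr1, Ccr7 differed by 0.05, S1pr4 by 0.06 and S1pr5 by -0.14, each with an exact permutation p of at least 0.686. In each of these ratios the groups overlapped.

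**Figure D4:**
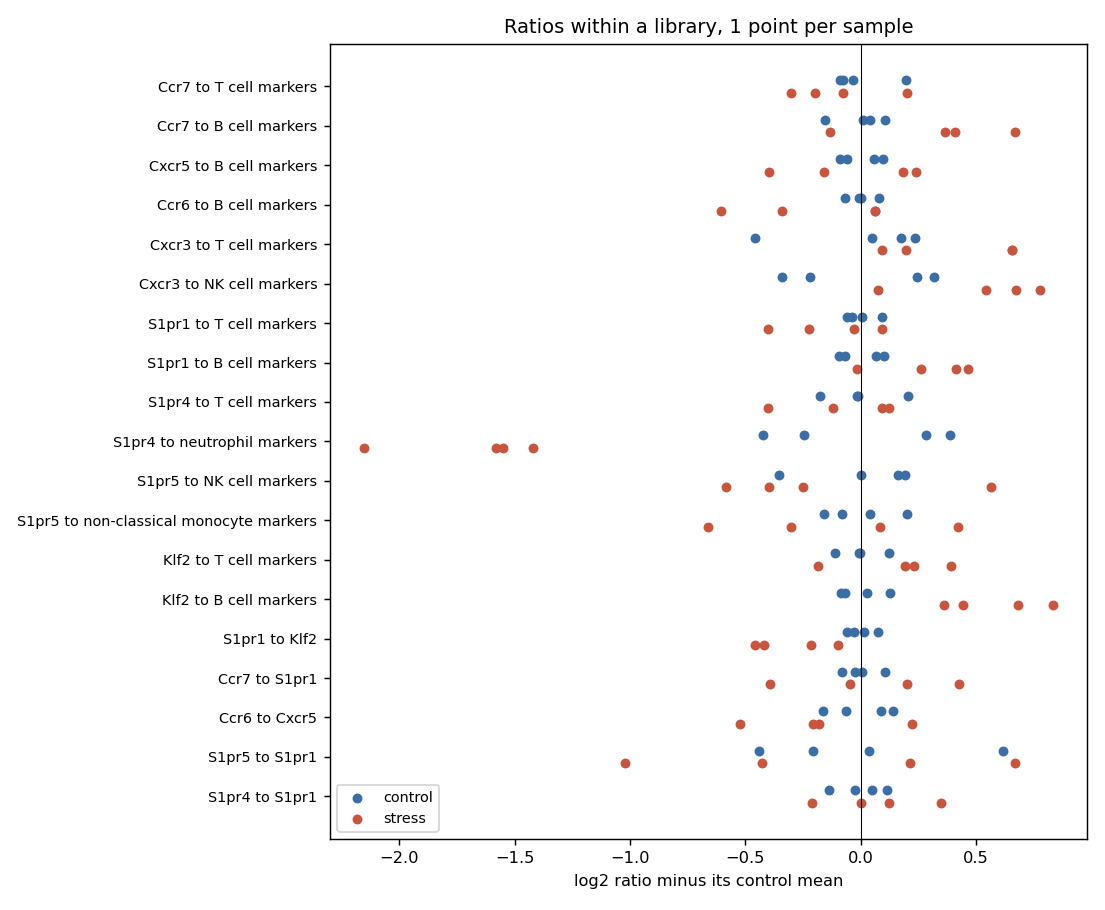
Log2 ratio of a member to a marker list or to another member within each library, minus its control mean (x axis), for the 19 ratios (y axis), with 1 point per sample. Control and stress points are apart only for S1pr4 to neutrophil markers, Klf2 to B cell markers and S1pr1 to Klf2.

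Genes that work with the members were listed by role. The ligands of the 4 chemokine receptors are made mainly in tissue, and in blood 0 of the 6 analysed genes had enough counts to be tested. Cxcl11, the remaining gene of the list, was not found among the counted genes by name or synonym. Ccl21a, Cxcl13 and Ccl20 had 0 counts in all 8 libraries, and Ccl19, Cxcl9 and Cxcl10 reached at most 2, 8 and 15 counts in any library.

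Of 9 tested genes of sphingosine-1-phosphate handling 1 rose and 0 fell by edgeR, and the median log2 fold change was 0.02. This share is near the 10.4% of all tested genes that rose. The gene was Mfsd2b, the transporter that exports sphingosine-1-phosphate from red cells and platelets. Mfsd2b went from 55.5 ± 13.3 to 95.7 ± 4.24 CPM (SD, n = 4 each, log2 fold change 0.79, edgeR adjusted p = 0.00521). Its groups did not overlap, the stress group being the higher, and the same held for 11.1% of the tested genes. Mfsd2b passed in all 8 fits without 1 library. With total counts alone its log2 fold change was 0.05, and on the TMM scale 10 of 10 platelet markers rose beside it. Cd69, which takes S1PR1 off the cell surface and was picked for mention after its values were seen, had a log2 fold change of -0.06 (SE 0.20, edgeR adjusted p = 0.864).

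Of 14 tested other homing receptors and adhesion molecules 3 rose and 0 fell by edgeR, beside 10.4% and 3.69% of all tested genes. The median log2 fold change was -0.01. Itgb1, the beta chain shared by many integrins, went from 138 ± 27.0 to 219 ± 10.4 CPM (SD, n = 4 each, log2 fold change 0.66, edgeR adjusted p = 0.0112). Selplg, which encodes a ligand of P-selectin, had a log2 fold change of 0.45 (edgeR adjusted p = 0.0141), and Itgb2, the beta chain of the leukocyte integrins, of 0.43 (edgeR adjusted p = 0.0444). With total counts alone the signs turned, to -0.08, -0.34 and -0.33. Without control replicate 2 the adjusted p was 0.0543 for Itgb1 and 0.0608 for Selplg (edgeR), and Itgb2 passed in 3 of 8 fits without 1 library.

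Of 16 genes of receptor signalling and desensitisation 3 rose and 0 fell by edgeR, beside 10.4% and 3.69% of all tested genes, and the median log2 fold change was -0.01. The 3 were Arrb1 (log2 fold change 0.57, edgeR adjusted p = 0.0226) and Arrb2 (0.49, edgeR adjusted p = 0.0229), the arrestins that turn off activated receptors, and Gnai2 (0.40, edgeR adjusted p = 0.0498), an inhibitory G protein through which chemokine receptors signal. With total counts alone their log2 fold changes were -0.15, -0.29 and -0.40. They passed in 5, 6 and 2 of the 8 fits without 1 library, respectively. DESeq2 called 4 genes of this list higher and 2 lower, beside 12.8% and 5.06% of all tested genes.

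Of 7 Foxo and Kruppel-like factors 1 fell and 0 rose by edgeR, beside 3.69% of all tested genes that fell, and the median log2 fold change was 0.06. Foxo1, which in T cells drives Klf2, S1pr1 and Ccr7, went from 65.6 ± 6.48 to 50.3 ± 6.16 CPM (SD, n = 4 each, log2 fold change -0.38, edgeR adjusted p = 0.0483). Every stress sample lay below every control sample, as in 9.87% of the tested genes. Which cells this fall came from was not tested: by the same rule 8 of 15 B cell markers and 0 of 16 T cell markers fell. With total counts alone the log2 fold change of Foxo1 was -1.16. It passed in 2 of the 8 fits without 1 library, those without control replicate 4 and without stress replicate 4, and its log2 fold change lay between -0.42 and -0.29.

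**Figure D5:**
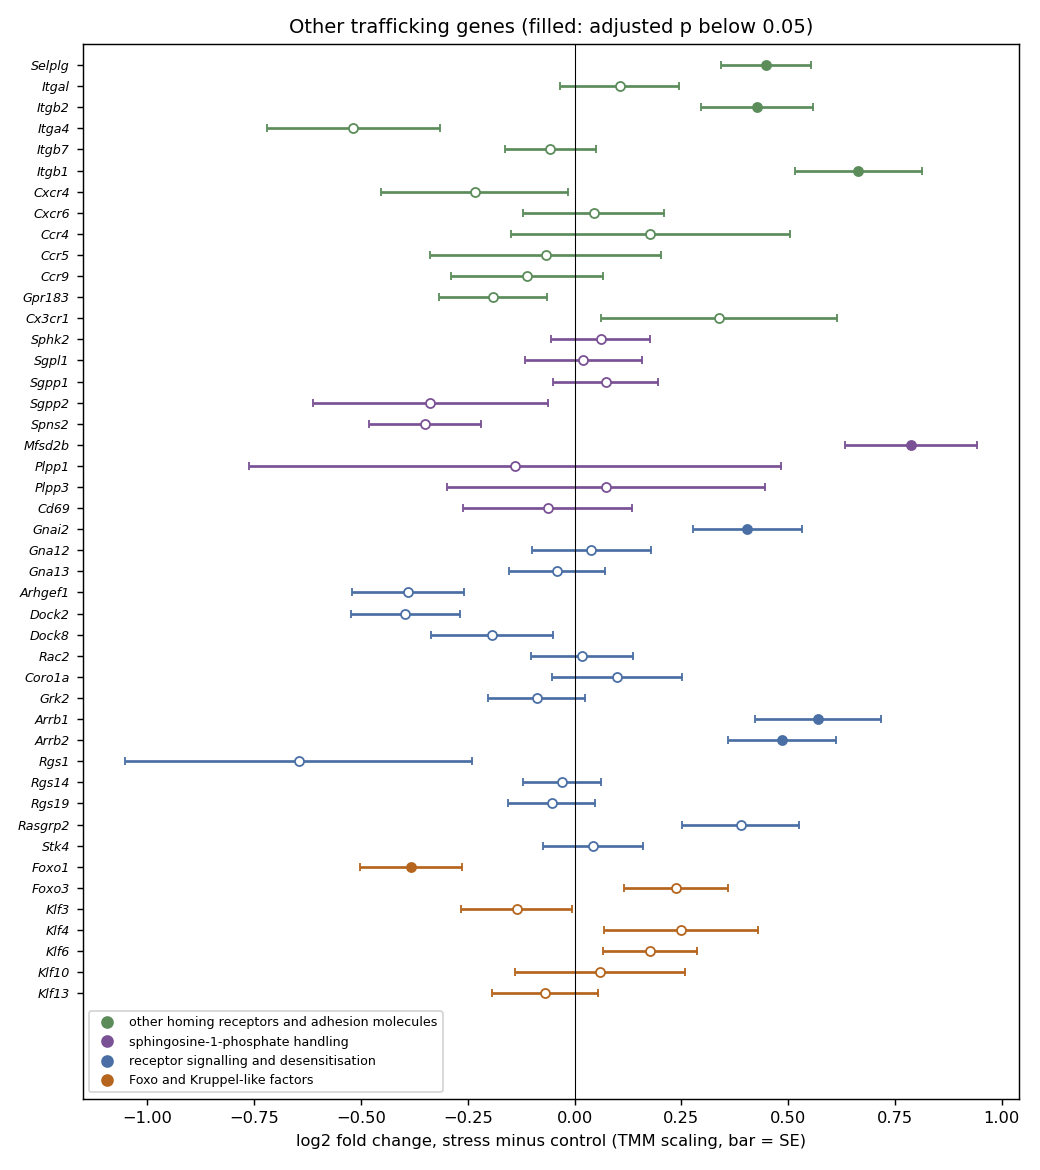
Log2 fold change, stress minus control, with TMM scaling and its SE (x axis) of tested genes of the 4 related lists (y axis, coloured by list), with filled points for an edgeR adjusted p below 0.05. There are 7 filled points to the right of 0 and 1, Foxo1, to the left; with total counts alone 6 of the 7 lie below 0 and Mfsd2b lies at 0.05.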

How the data were processed

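RNA of mouse peripheral blood was sequenced in 8 samples. The deposited table, made by the authors, holds raw read counts for each gene symbol, not normalized, and the submitters' processing notes name HISAT2, featureCounts and mm10. Versions, annotation, strand setting and filters are not given in the sources used here. Groups came from the labels. Genes that reached 10 counts in 4 or more samples entered the robust quasi-likelihood test of edgeR 4.0.16 in R 4.3.3 after TMM scaling, adjusted by Benjamini-Hochberg over all 11718 genes. DESeq2 1.42.0 and limma-voom (limma 3.58.1) were alternatives, beside other scalings and filters, the replicate number as a block, and fits without 1 sample. Ratios used log2(CPM + 0.1), list means of log2 values, and two-sided exact permutation tests over 70 assignments. Coordinates are GENCODE M21 on GRCm38. The scripts' fits were tested on simulated data. All members were named, and of each related list up to 4 genes per direction at an adjusted p below 0.05. Some genes that these rules name are not reported here. Members, lists and motifs were chosen with earlier results of these data known.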

Additional observations from a re-analysis of the deposited data

How the results depend on the processing

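The count of members that were lower was 2 with TMM, 7 with total counts alone and 0 with a replicate block, and it lay between 0 and 2 when 1 library was left out. It was 0 without control replicate 2, control replicate 3, stress replicate 2 or stress replicate 3. The number past the study's thresholds was 0 with TMM and 2 with total counts alone. Total counts alone turned the log2 fold change of Cxcr3 to -0.53, of S1pr2 to -0.0058 and of Klf2 to -0.74. The cause was not tested. With the replicate block the adjusted p (edgeR) was 0.0639 for Cxcr5 and 0.0845 for Ccr6. Same-numbered samples correlated at 0.06, 0.00044, -0.04 and -0.16 in their deviations from the group means. The labels give no pairing beyond the number, and these values cannot exclude a shared litter, cage or day. Leaving out 1 library moved some log2 ratio differences across 0, given as values without a test. The ranges were -0.41 to 0.15 for S1pr5 to S1pr1, -0.080 to 0.19 for Ccr7 to S1pr1, -0.030 to 0.16 for S1pr4 to S1pr1, -0.14 to 0.031 for S1pr4 to T cell markers, -0.13 to 0.088 for Cxcr5 to B cell markers and -0.29 to 0.065 for S1pr5 to non-classical monocyte markers. S1pr2 had 16 to 82 counts per library.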

Other observations

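For each member the tested genes with the most similar course over the 8 samples were found by the root mean square difference of centred log2 CPM, where 0 is an identical course. Near to Cxcr5 were Elp3 (0.09) and Slc38a1 (0.10). Nearest to Ccr6 were Sufu (0.10), Bcl11a (0.11), a transcription factor needed for B cell development, and St6gal1 (0.12), a sialyltransferase that makes the ligand of CD22. Nearest to Klf2 were Kif1c (0.03), Arl6ip5 (0.03) and Coro1a (0.04), an actin regulator of lymphocytes. For Ccr7 the nearest was Mthfd1l (0.06), for S1pr1 Cpsf3 (0.05), for S1pr4 Ap1ar (0.05) and for Cxcr3 Smim19 (0.14). S1pr2 and S1pr5 had no gene closer than 0.22, Apbb2 and Gm14391, respectively. Among the members the closest pair was Ccr7 and S1pr4 (0.13), followed by S1pr4 and Klf2 (0.14) and by S1pr1 and S1pr4 (0.16). These distances describe 8 libraries that share their depth and scaling, and a gene that hardly varies is close to any other such gene.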
